A study of Arabidopsis thaliana with 4 samples.

Results

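The chitinase family genes CHI (AT2G43570), AT2G43580, AT2G43590, AT2G43600, AT2G43610 and AT2G43620 lie close together on chromosome 2 of Arabidopsis thaliana. All 6 were chosen by identifier because they sit in 1 cluster, with their difference between rsa3-1 and wild type already known from these arrays. Each had 1 probe set named for it alone, so 6 of the 13286 genes named in this way are described here. The rsa3-1 group held 2 arrays from seedlings of the rsa3-1 mutant, and the wild type group held 2 arrays from seedlings of the parent line. Both groups were in the Columbia gl1 background with the RD29A::LUC transgene, a luciferase reporter under a stress-responsive promoter. Both were whole seedlings 6 days old that spent 24 h on 120 mM NaCl, and the design text calls the arrays of a genotype biological replicates. There was no array without salt, so every difference is between genotypes under salt, and rsa3-1 is a single allele. RSA3 (AT2G20370, also called MUR3) encodes a galactosyltransferase that acts on xyloglucan, a polymer of the primary cell wall. The platform annotation names 0 probe sets for RSA3 alone. Probe sets named for several genes were not searched, and the mutated gene was not analysed here.

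Chitinases cut chitin, a polymer of N-acetylglucosamine found in fungal walls and insect cuticles and not made by plants. Plant chitinases fall mainly into glycoside hydrolase families 18 and 19, and the clustered genes belong to family 19. Many family 19 enzymes are secreted or vacuolar defence proteins, counted among the pathogenesis-related proteins, and the fragments they release from chitin are sensed by LysM receptor kinases such as CERK1. Some family members are chitinase-like proteins of the plant's own wall, such as POM1, which takes part in cellulose assembly. The labels mention no fungus or chitin treatment of these seedlings.

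Transcript levels are RMA values on the log2 scale, where a difference of 1 is 2-fold. Array medians lay between 6.46 and 6.51, and the lower quartile of each array lay between 4.32 and 4.38. Wild type replicate 1 stood apart in the non-plant spike-in controls, 44 of 45 of which were highest there, by a median of 0.943 over the mean of the other arrays. Differences of members, listed genes and the flanking genes named below are therefore also given without it where they turned with this array. For flanking genes that are not named no such value is given. Levels of different probe sets are not comparable. The genotypes are therefore compared within a probe set or, for tissue markers, within a sum over the same probe sets on each array.

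The genes at the ends of the cluster, AT2G43620 and CHI, were higher in rsa3-1. The 4 genes between them differed less, by -0.05 to 0.42 on the log2 scale. AT2G43620 had values of 9.23 and 9.56 in rsa3-1 replicates 1 and 2, against 7.14 and 7.03 in wild type replicates 1 and 2. Both rsa3-1 arrays lay above both wild type arrays, and the gap between genotypes was far wider than the gap within either. The means were 9.40 ± 0.23 in rsa3-1 and 7.09 ± 0.08 in wild type (SD, n = 2 each). The log2 difference of AT2G43620 was 2.31 ± 0.13 (SE, from the limma fit), a 4.96-fold higher level in rsa3-1. Between single arrays the ratio ran from 4.26-fold to 5.78-fold. In whole seedlings a higher level per cell and a larger number of cells that make the transcript cannot be told apart.

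CHI, the gene at the other end and the member that carries the family's name as its symbol, had values of 8.88 and 9.09 in rsa3-1 replicates 1 and 2, against 7.60 and 7.41 in wild type replicates 1 and 2. Here too the genotypes did not overlap. The means of CHI were 8.98 ± 0.15 in rsa3-1 and 7.50 ± 0.13 in wild type (SD, n = 2 each). Its log2 difference was 1.48 ± 0.12 (SE), which is 2.79-fold, and single-array ratios ran from 2.43-fold to 3.20-fold. In both genes rsa3-1 replicate 2 was the highest array and wild type replicate 2 the lowest. Without wild type replicate 1 the log2 difference was 2.37 for AT2G43620 and 1.57 for CHI.

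AT2G43610, the next member in from AT2G43620, stood between these genes and the rest. Its values were 9.23 and 9.31 in rsa3-1, against 9.04 and 8.65 in wild type, so the groups did not overlap. The log2 difference of AT2G43610 was 0.42 ± 0.14 (SE), or 1.34-fold. The wild type arrays themselves differed by 0.39, close to the size of the difference between genotypes. The value depended on which wild type array was kept, at 0.62 without wild type replicate 1 and 0.23 without wild type replicate 2.

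AT2G43600 had values of 6.62 and 6.46 in rsa3-1, against 6.42 and 6.24 in wild type. The groups were separate by only 0.041, the gap between the lower rsa3-1 array and the higher wild type array. The log2 difference of AT2G43600 was 0.21 ± 0.11 (SE), and replicates within a genotype differed by 0.16 in rsa3-1 and 0.17 in wild type. The value was 0.12 without wild type replicate 2 and 0.13 without rsa3-1 replicate 1, and 0.29 when either of the other arrays was left out alone.

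AT2G43590, with values of 10.14 and 10.19 in rsa3-1 against 10.36 and 10.06 in wild type, was high on all arrays and overlapped between genotypes. Its log2 difference was -0.05 ± 0.12 (SE). The sign of this value turned with the arrays used, at 0.11 without wild type replicate 1 and -0.20 without wild type replicate 2.

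AT2G43580 had values of 4.65 and 4.62 in rsa3-1, against 4.35 and 4.64 in wild type. The genotypes overlapped, with wild type replicate 1 alone below the other arrays. The log2 difference of AT2G43580 was 0.14 ± 0.12 (SE), and it was -0.01 without wild type replicate 1 and 0.29 without wild type replicate 2. All its values lay near the lower quartile of the arrays, and without detection calls they may be background.

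**Figure D1:**
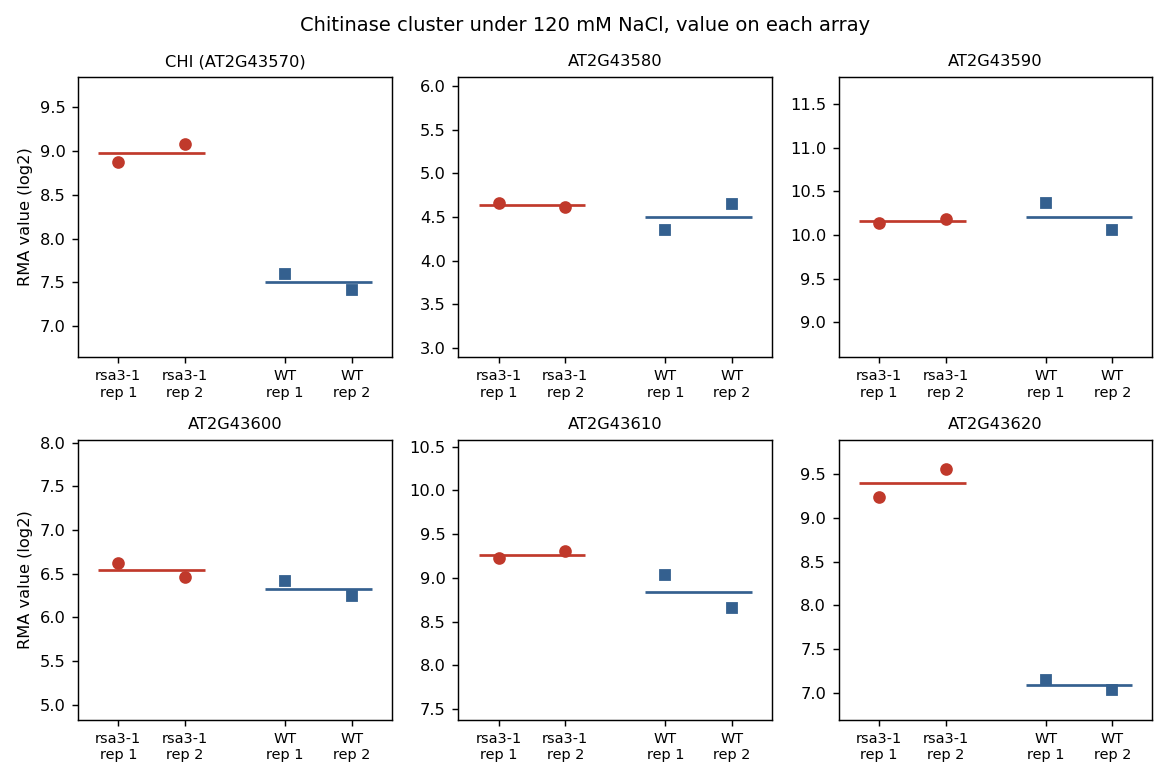
RMA value (log2) of each clustered chitinase on each array, rsa3-1 as red circles and wild type (WT) as blue squares, with a line at the mean of each genotype; every panel spans the same height. AT2G43620 and CHI are separated by 2.31 and 1.48, while AT2G43580 and AT2G43590 overlap between genotypes.

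Over the cluster, 5 of 6 differences were positive, against 10717 of all 22746 probe sets tested. The median was 0.32 in the cluster and -0.01 over all probe sets. In limma's moderated test 2 of the 6 members, AT2G43620 and CHI, were called higher at an adjusted p under 0.05, against 0.659% of all probe sets called higher. The genotypes did not overlap, with rsa3-1 higher, for 4 of the 6 members, against 17.8% of all probe sets. Since the cluster was chosen with this comparison known, these counts describe the members and are not a test. Ordered from the most positive difference down, AT2G43620 ranked 14 and CHI 39 among the 22746 probe sets. AT2G43610 ranked 383, AT2G43600 ranked 1852, AT2G43580 ranked 3458 and AT2G43590 ranked 13998. The differences of the 4 inner members ran from -0.05 to 0.42. In the histogram of all probe sets the outer pair lies in the sparse right tail, and AT2G43610 lies on the right shoulder.

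**Figure D2:**
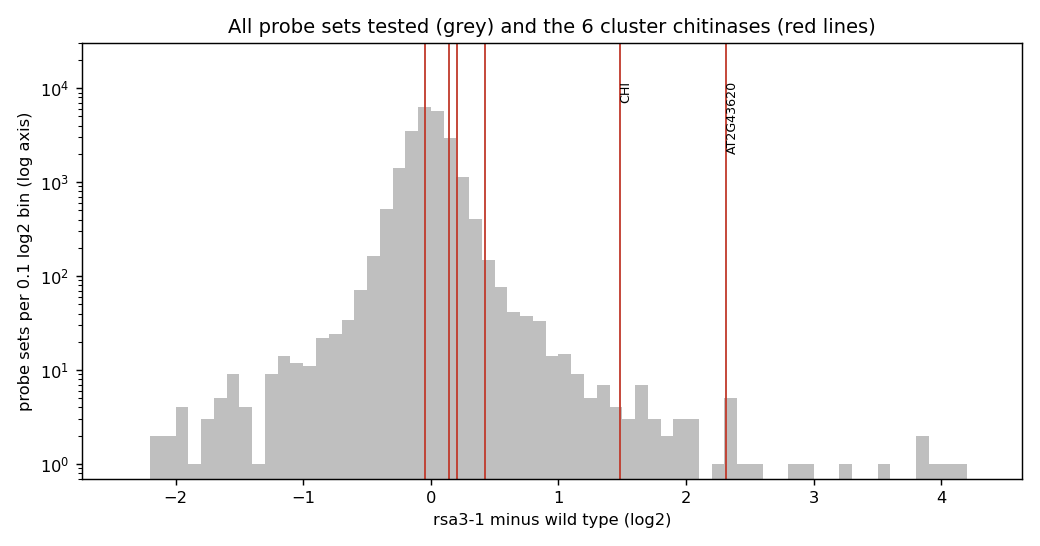
Number of probe sets (log axis) by log2 difference, rsa3-1 minus wild type, in bins of 0.1, for all 22746 probe sets tested, with a red line at each clustered chitinase. The lines of CHI at 1.48 and AT2G43620 at 2.31 stand in the right tail, and the other 4 lie between -0.05 and 0.42.

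The genes around the cluster were examined to see how far along the chromosome the differences reached. In the gene order of the TAIR10.1 RefSeq table the first 5 members follow each other directly, and 2 non-coding genes without a named probe set stand between AT2G43610 and AT2G43620. Of the 10 annotated genes on either side, 9 of 20 had a named probe set, and 0 of these 9 were called in limma (2 at an unadjusted p under 0.05). Over all probe sets 1.13% were called and 9.68% had an unadjusted p under 0.05. The flanking genes' differences ran from -0.01 to 0.34 with a median of 0.06.

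Next to AT2G43620, AT2G43630 had values of 8.91 and 8.66 in rsa3-1 and of 8.77 and 8.76 in wild type, a log2 difference of 0.02 ± 0.11 (SE). The gene after it, AT2G43640, which encodes a signal recognition particle subunit, differed by 0.06 ± 0.12 (SE). Next to CHI on the other side, AT2G43560, of the FKBP-type peptidyl-prolyl isomerase family, had values of 9.87 and 9.59 in rsa3-1, against 9.52 and 9.61 in wild type. Its difference was 0.16 ± 0.12 (SE) and the genotypes overlapped. The genes directly beside the outer members thus differed by 0.02 and 0.16, against 2.31 and 1.48 in the outer members themselves.

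Both flanking genes with an unadjusted p under 0.05 were AT2G43535 and AT2G43530, which encode small cysteine-rich knottin proteins beside the trypsin inhibitor genes TI1 and TI2. AT2G43535 had values of 8.71 and 8.67 in rsa3-1, against 8.21 and 8.48 in wild type, with a log2 difference of 0.34 and a limma adjusted p of 0.39. AT2G43530 had values of 9.63 and 9.75 in rsa3-1, against 9.19 and 9.55 in wild type, with a difference of 0.33 and a limma adjusted p of 0.50. In both, wild type replicate 1 was the lowest array, and without it the differences were 0.21 for AT2G43535 and 0.15 for AT2G43530. Over the alternatives the adjusted p ran from 0.22 to 0.81 for AT2G43535 and from 0.22 to 0.89 for AT2G43530.

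**Figure D3:**
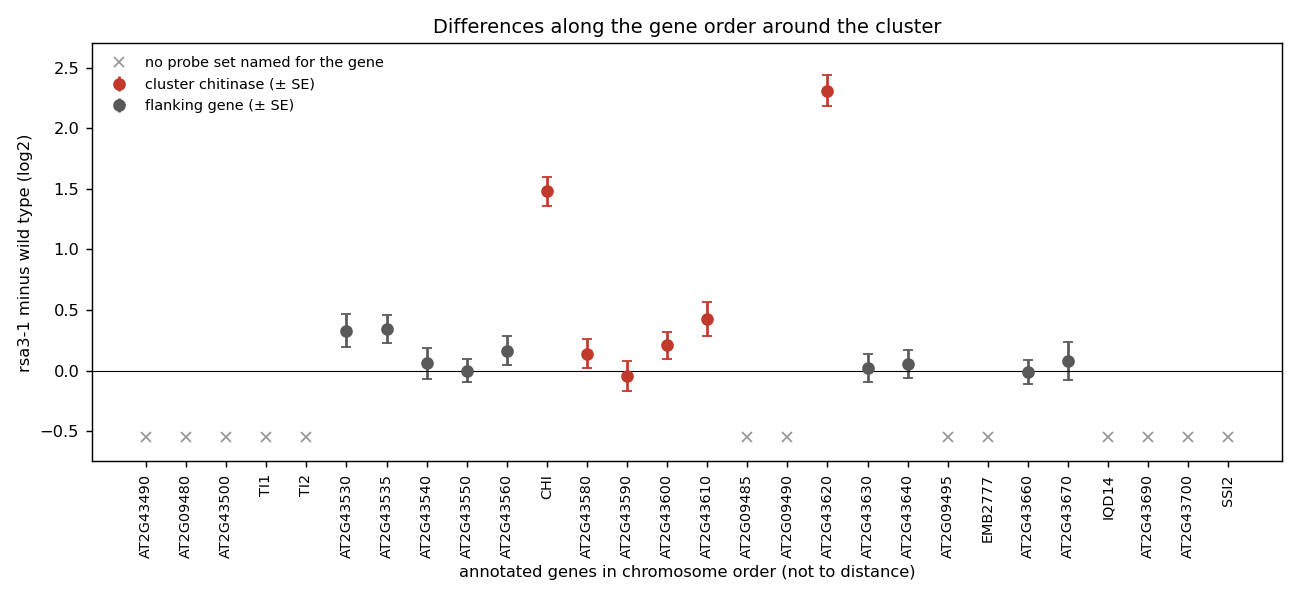
Log2 difference, rsa3-1 minus wild type, with its standard error, for the clustered chitinases (red) and the measured flanking genes (grey) in gene order; crosses mark genes without a probe set named for them. The outer members stand at 1.48 and 2.31, while the inner members and flanking genes lie between -0.05 and 0.42.

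Other genes that break down or sense chitin, or that belong to the pathogenesis-related families, were then compared between the genotypes. Of 49 listed genes 20 had a named probe set, and 0 of these were called in limma over all probe sets, while 3 had an unadjusted p under 0.05. The shares over all probe sets were 1.13% called and 9.68% at an unadjusted p under 0.05. The median of the 20 differences was 0.03, with 11 positive and 9 negative. The other 29 listed genes were not analysed here, among them HCHIB, EP3, POM1, CERK1 and BGL2.

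The other family 19 chitinase genes come closest to the cluster in kind. Of 8 listed, 4 were measured, and their differences ran from 0.07 to 0.26 with a median of 0.18. The highest was AT4G01700, with values of 7.33 and 7.17 in rsa3-1, against 7.03 and 6.95 in wild type. The genotypes did not overlap, and the log2 difference was 0.26 ± 0.11 (SE; limma adjusted p = 0.48). AT1G02360 was at 0.18, AT3G47540 at 0.18 and AT1G56680 at 0.07, with limma adjusted p of 0.75, 0.66 and 0.95. These values lie in the range of the 4 inner members of the cluster, and their difference from AT2G43620 and CHI was not tested, since those were chosen on this comparison.

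The family 18 chitinase genes, whose enzymes act on the same polymer through an unrelated fold, included the most negative difference in the lists. ChiC (AT4G19810), a class V chitinase, had values of 9.92 and 9.80 in rsa3-1, against 10.57 and 10.38 in wild type. Both rsa3-1 arrays lay below both wild type arrays. The log2 difference of ChiC was -0.62 ± 0.11 (SE), and a level 1.54-fold lower in rsa3-1 (limma adjusted p = 0.060). It passed the threshold under 5 of the alternatives for scaling, filtering and variance, with adjusted p from 0.010 to 0.041, and over the remaining alternatives adjusted p ran from 0.058 to 0.29. Without wild type replicate 1 the difference was -0.52 (limma adjusted p = 0.29).

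AT4G19820, which lies next to ChiC in the gene order, was also lower in value in rsa3-1, at 4.50 and 4.47 against 5.07 and 4.78 in wild type. Its log2 difference was -0.43 ± 0.12 (SE; limma adjusted p = 0.27), and over the alternatives the adjusted p ran from 0.15 to 0.65. It was dim on all arrays, and its difference was -0.29 without wild type replicate 1. The other measured family 18 genes were also dim, with AT4G19720 at 0.23, AT4G19730 at -0.19 and AT4G19740 at 0.09 on the log2 difference scale. AT4G19720 turned to -0.01 without wild type replicate 1. Over the 5 of 10 measured the median difference was -0.19, with 2 positive and 3 negative.

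Chitin perception was represented by 2 of 10 listed genes. BIK1, a receptor-like cytoplasmic kinase of immune signalling, had a log2 difference of 0.16 ± 0.10 (SE; limma adjusted p = 0.68). AT5G18610, the related kinase PBL27 that acts below CERK1, was at -0.02 ± 0.13 (SE; limma adjusted p = 0.995) and had dim values from 4.18 to 4.48. The 3 listed hexosaminidases, which remove terminal N-acetylglucosamine, were not analysed here.

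Beta-1,3-glucanases attack beta-1,3-glucan, another main polymer of fungal walls, and often accompany chitinases in defence. The 3 measured of 8 listed had log2 differences of 0.03 for AT4G16260, -0.03 for AT3G13560 and 0.09 for AT2G01630 (limma adjusted p = 0.97, 0.98 and 0.92). AT4G16260 had values of 9.88 and 9.90 in rsa3-1, against 9.84 and 9.87 in wild type. Its standard error was 0.10. AT3G13560 turned to 0.16 without wild type replicate 1.

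Of the other pathogenesis-related families 6 of 10 listed genes were measured, and their differences ran from -0.20 to 0.04 with a median of -0.10. The defensin gene PDF1.2 was at -0.20, AT4G33730 at -0.16, AT4G33710 at -0.11 and the osmotin-like gene OSM34 at -0.09 (limma adjusted p = 0.74, 0.90, 0.84 and 0.87). PDF1.2 had values of 5.13 and 5.22 in rsa3-1, against 5.57 and 5.17 in wild type, so wild type replicate 1 alone stood above the other arrays, and without it the difference was 8.28e-05. Without the same array AT4G33710 was at 0.02, which turns its sign.

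**Figure D4:**
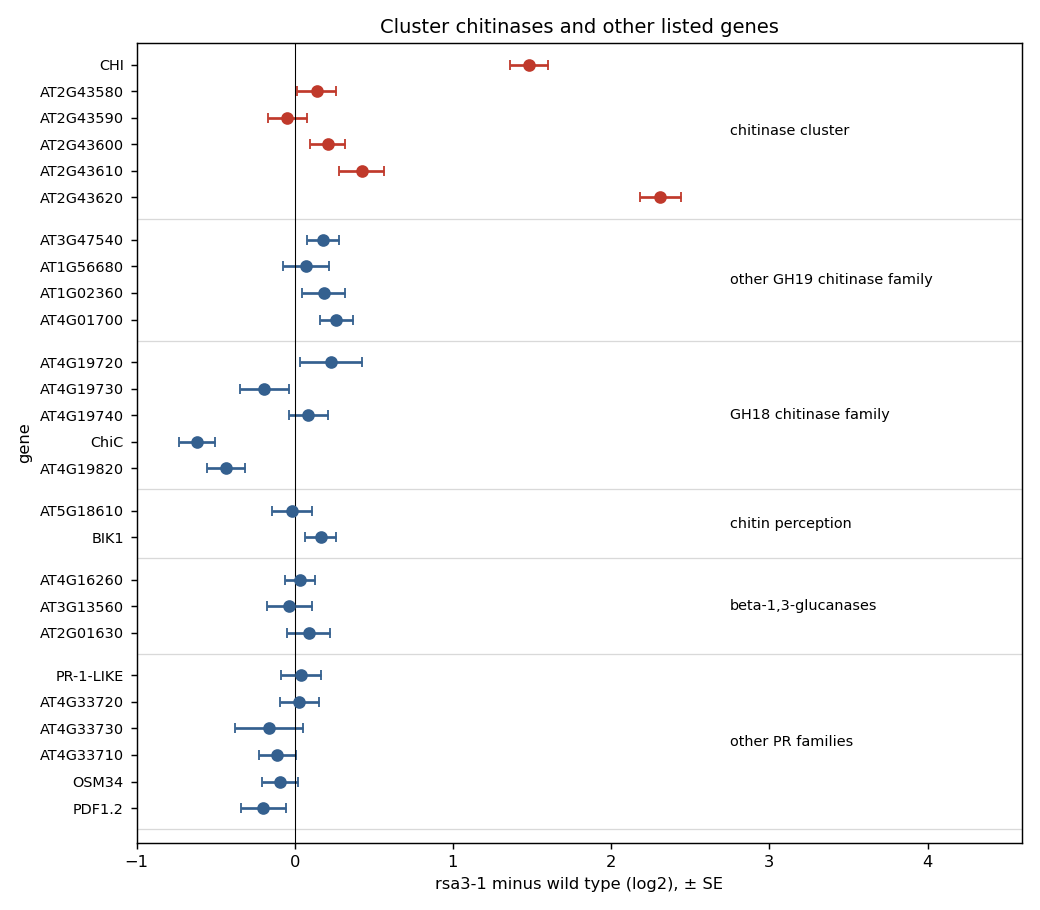
Log2 difference, rsa3-1 minus wild type, with its standard error, for the clustered chitinases (red) and the 20 other measured genes of the lists (blue). AT2G43620 and CHI stand at 2.31 and 1.48; the other genes lie between -0.62 for ChiC and 0.42 for AT2G43610.

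The genes whose pattern over the 4 arrays was most like that of the outer members were found by distance. Each probe set was centred on its own mean. The root mean square distance between centred values was taken over the 13436 probe sets named for 1 gene. Values were not scaled, so the distance counts the size of a difference as well as its shape over the arrays. This measure chooses genes by the same comparison, so their differences carry no test. The profile nearest to AT2G43620 was that of RING1 (AT5G10380), a RING-type ubiquitin ligase, at a distance of 0.043. RING1 had values of 7.14 and 7.51 in rsa3-1, against 5.10 and 5.06 in wild type, a log2 difference of 2.25. AT3G47480, which encodes an EF-hand protein, followed at a distance of 0.12, AT2G18690 at 0.12, AT1G56060, of the cysteine-rich transmembrane family, at 0.19 and the lectin gene AT5G03350 at 0.22. Their log2 differences were 2.31, 2.08, 1.98 and 2.08. The wild type means of AT3G47480 and AT1G56060 were 4.11 and 4.78, low on these arrays, so the sizes of those differences are uncertain.

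For CHI the nearest profile was that of the defensin gene PDF1.4 (AT1G19610) at a distance of 0.11, with values of 7.31 and 7.81 in rsa3-1, against 6.13 and 5.88 in wild type. The beta-glucosidase gene BGLU25 was at a distance of 0.12, with 11.20 and 11.27 in rsa3-1, against 9.68 and 9.40 in wild type. AT3G28540, of the AAA-ATPase family, was at 0.13, the pectin methylesterase gene ATPMEPCRB at 0.14 and the tetraspanin gene TET9 at 0.14. The log2 differences were 1.56 for PDF1.4, 1.69 for BGLU25, 1.64 for AT3G28540, 1.66 for ATPMEPCRB and 1.42 for TET9. AT3G28540 and TET9 had low wild type means, 4.74 and 4.15.

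Neither outer member was the other's nearest profile by this distance, which also counts size. Their log2 differences were 2.31 for AT2G43620 and 1.48 for CHI, and both genes had the same highest and lowest array. CHI was at a distance of 0.42 from AT2G43620 and ranked 18 by nearness among 13435 other probe sets. Seen from CHI, AT2G43620 ranked 77. AT2G43610 ranked 185 from AT2G43620 and 174 from CHI, and the remaining inner members ranked between 943 and 8030 from either gene.

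**Figure D5:**
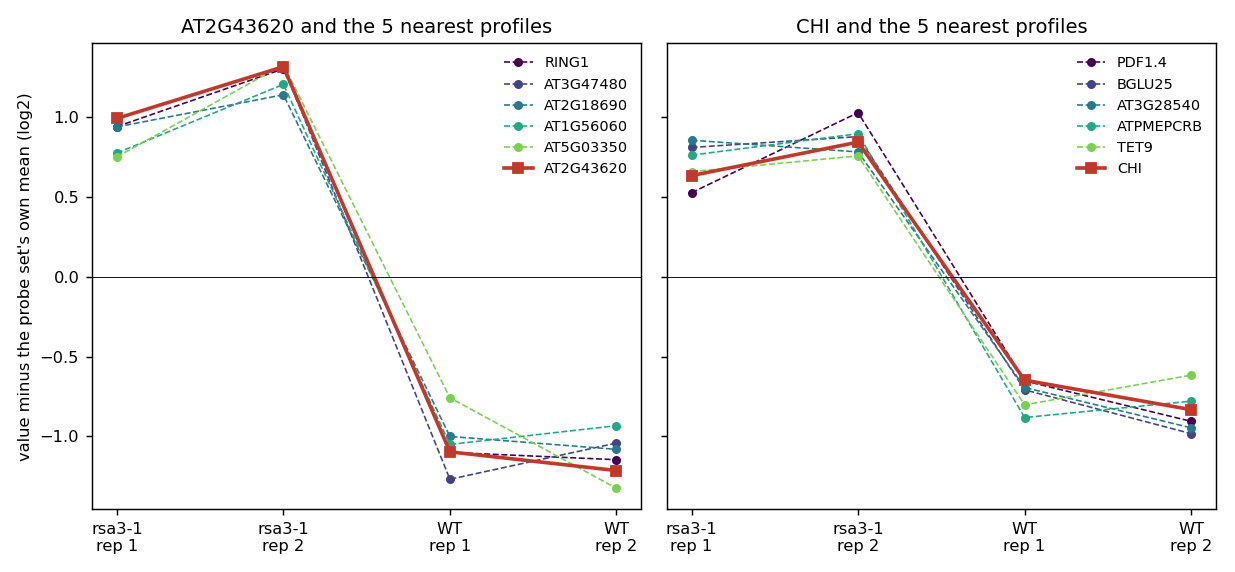
Value on each array minus the probe set's own mean (log2) for AT2G43620 and CHI (red) and the 5 genes of nearest profile to each (dashed), rsa3-1 arrays left and wild type (WT) arrays right; lines join arrays only to guide the eye. RING1 lies almost on AT2G43620, at a distance of 0.043.

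Markers of the tissues in a whole seedling were checked beside these differences. Of 15 markers 9 were measured and 0 were called in limma (2 at an unadjusted p under 0.05), against 1.13% called and 9.68% at an unadjusted p under 0.05 over all probe sets. The summed level of the 4 measured photosynthetic shoot genes, on the log2 scale, ran from 15.04 to 15.07 in rsa3-1 and was 14.96 on both wild type arrays. The root gene PYK10 was at 13.40 and 13.38 in rsa3-1, against 13.45 and 13.54 in wild type. The 2 root hair expansin genes had a summed level from 7.65 to 7.85 in rsa3-1 and from 8.00 to 8.16 in wild type, and the guard cell genes from 7.93 to 8.00 in rsa3-1 and from 7.89 to 8.24 in wild type. The shoot sums were higher and the root and root hair levels lower in rsa3-1 without overlap. Of all probe sets 17.8% were higher in rsa3-1 without overlap, and the share that was lower was not computed. Single-gene log2 differences ran from -0.37 for EXPA18 to 0.28 for HPR. The part of these markers in the chitinase differences was not tested. Vascular and seed markers were not analysed here.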

How the data were processed

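Whole seedlings were profiled on Affymetrix ATH1 arrays, with 2 arrays for rsa3-1 and 2 for wild type. The deposited values are log2 values that the authors made with RMA, per the submitters' processing notes; which software ran it, and how probes were grouped, is not given in the sources used here. RMA subtracts background, brings arrays to a common distribution and combines the probes of a set, and it shrinks differences between dim probe sets. The deposited values were not scaled again. After removal of 64 array controls from 22810 probe sets, 22746 remained. The platform annotation named 1 gene for 13513 of the probe sets, of which 13436 were found by gene identifier in the RefSeq table (TAIR10.1), used for names and gene order only. Probe sequences were not used here, so signal shared between related chitinases was not tested.

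All probe sets were fitted in R 4.3.3 by limma 3.58.1 (lmFit, then eBayes; two-sided; rsa3-1 minus wild type), with Benjamini-Hochberg adjustment over 22746 probe sets and a threshold of 0.05; prior degrees of freedom were 5.35. Standard errors are from this fit. The number of arrays limits the precision. The comparison was simulated in 20 runs over 22746 probe sets, with 200 changed probe sets a run. Noise was independent and normal, drawn from limma's own variance prior, with the same spread on every array of a probe set. In this setting the test found 19.4% of the changes at 1.5-fold, 90.7% at 2-fold and 99.8% at 4-fold. Of its calls 5.03% were wrong. An array that stands apart was not simulated, so the rates may not hold for these arrays. Tables and figures used Python 3.11.15, pandas 2.3.3 and matplotlib 3.10.9.

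The members, the 6 other lists and the tests were chosen with earlier results of these data known. Genes named are all members, and list genes with a call or otherwise up to 4 with the smallest p. Of the measured flanking genes not all are named. Those named are the genes directly beside the outer members, AT2G43640, and those with an unadjusted p under 0.05. In the family 18 list all 5 measured genes are named. The 5 nearest profiles to each of the 2 members of largest difference are named too. Same-numbered arrays had a correlation of deviations of 0.013, which gives no sign of pairing. Alternatives covered scaling, filters at mean log2 values of 5 and 6, variance model, array weights, a 2-fold minimum, the replicate number as a block, and each array left out.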

Additional observations from a re-analysis of the deposited data

How the results depend on the processing

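The 256 probe sets called became 135 with a 2-fold minimum, which is stricter by construction, and 42 with the replicate number as a block (32 higher, 10 lower), against 150 higher and 106 lower otherwise. With 1 array dropped at a time there were 102 to 222 calls, the fewest without wild type replicate 1 (75 higher, 27 lower), then 127 without wild type replicate 2 and 143 without rsa3-1 replicate 2, where a genotype left with 1 array takes its spread from the other. Under every alternative but the block 2 members were called higher, and with the replicate block 1 was, AT2G43620, while CHI was not. The labels give no shared origin for a replicate number, and the deviations had a correlation of 0.013. Of the 20 other listed genes 0 were called; the count was 1, ChiC, with a common array median, after quantile normalization, with either filter on dim probe sets and with trended and robust variance, where the cause was not tested. It was 0 with array weights, a 2-fold minimum, the block or any array left out. With each array left out, log2 differences ran from 2.15 to 2.47 for AT2G43620, 1.37 to 1.58 for CHI, 0.23 to 0.62 for AT2G43610, 0.12 to 0.29 for AT2G43600, -0.01 to 0.29 for AT2G43580 and -0.20 to 0.11 for AT2G43590. AT2G43580 fell below both filters on dim probe sets and has no value there.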
